A study of Homo sapiens with 6 samples.

Results

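The SLC25 family of mitochondrial carriers was followed as guide abundance in a pooled CRISPR knockout screen of HAP1, a near-haploid human leukaemia cell line. Members were taken by name, as guides whose gene column reads SLC25A and a number. This gave 477 guides for 48 genes, out of 71626 guides for 7093 genes, and 476 of the member guides for all 48 genes passed the filter on library count. Of the 48 genes, 47 had 10 guides in the table and SLC25A51 had 7, and the guide left out belonged to SLC25A11. The samples were 2 of the guide library, 2 of parental HAP1 cells and 2 of HAP1 cells labelled SETD2-mutant. SETD2 is a histone methyltransferase that marks lysine on histone H3 along transcribed genes. Both cell lines carried the guide library, introduced at a multiplicity of infection of 0.7, and were kept in puromycin, which selects infected cells, for 12 doublings. Each line was split into replicates only after transduction, so the 2 replicates of a line share 1 infected population. The SETD2 allele, the number of mutant clones and the way in which the library samples were taken are not given in the sources used here. Guide counts from genomic DNA hold no expression, so the identity of the cells was not checked with marker genes.

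SLC25 proteins are carriers that move metabolites, nucleotides, cofactors and ions, most of them across the inner membrane of mitochondria. They link the citric acid cycle and the respiratory chain in the matrix to synthesis of lipids, nucleotides and amino acids in the cytosol. The citrate carrier SLC25A1 exports citrate in exchange for malate and feeds cytosolic acetyl-CoA, the phosphate carrier SLC25A3 and the ADP/ATP carriers supply ATP synthase, and other members bring in S-adenosylmethionine, NAD, folate, iron or glutathione. A guide whose target gene is needed for growth becomes rarer over the screen, and a guide whose target restrains growth becomes more common.

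Sample totals ranged from 25082426 to 38428425 counts. A guide's level is given as CPM, its count scaled to a fixed total per sample with TMM factors, and a gene's level in a sample as the mean of log2 CPM over its guides. For a gene, the edgeR log2 changes of its guides were averaged, and SE is their standard error from guide to guide. Negative values mean rarer guides. Genes were called by edgeR for each guide and robust rank aggregation (RRA) of the guides, at a Benjamini-Hochberg adjusted p below 0.05 in each direction over all 7090 genes tested. Across the 48 carriers, the change from library differed between the parental replicates by a median of 0.0841 and between the SETD2-mutant replicates by 0.136, and the largest difference, for SLC25A26 in both lines, was 0.499 and 0.516. The Pearson correlation over these 48 genes, which share libraries and depth, was 0.980 between parental and 0.975 between SETD2-mutant replicates. The SE over guides of the difference between the lines ranged from 0.0978 for SLC25A5 to 0.952 for SLC25A3, with a median of 0.157.

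Most carriers gave no call. Between SETD2-mutant and parental cells, SLC25A3 and SLC25A25 were depleted, 2 of 48 where 1.28% of all genes were depleted, and SLC25A1 was enriched, 1 of 48 where 1.03% of all genes were enriched. In parental cells against library, SLC25A26, SLC25A3 and SLC25A51 were depleted, 3 of 48 against 9.9% of all genes, and SLC25A36 was enriched, 1 of 48 against 1.11%. In SETD2-mutant cells against library, SLC25A26 and SLC25A3 were depleted, 2 of 48 against 9.04%, and SLC25A1 was enriched, 1 of 48 against 1.11%. The family's median change was −0.03 between the lines (all genes −0.04), −0.06 in parental cells (all genes −0.01) and 0.01 in SETD2-mutant cells (all genes −0.05). Before adjustment, an RRA p below 0.05 between the lines was found for depletion of 6 carriers, where 7.53% of all genes passed, and for enrichment of 3, where 6.84% passed. In parental cells against library these counts were 3 depleted, against 12.1% of all genes, and 10 enriched, 20.8% of the carriers against 9.38% of all genes. In SETD2-mutant cells they were 4 depleted, against 12% of all genes, and 9 enriched, 18.8% of the carriers against 10.3%. Between the lines 33 of 48 carriers changed by less than 0.25 in either direction. Both comparisons with library use the same library samples.

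The same comparisons were counted for single guides and with a gene test that calls more genes. Between the lines edgeR called 62 of 476 member guides depleted and 61 enriched, 13.0% and 12.8%, against 12.8% and 11.5% of all guides. In parental cells against library 90 were depleted and 111 enriched, 18.9% and 23.3%, against 21.1% and 18.9% of all guides. In SETD2-mutant cells against library 95 were depleted and 118 enriched, 20.0% and 24.8%, against 23.7% and 22.2%. Both SETD2-mutant replicates lay below both parental replicates for 21 of 48 carriers and above them for 12, against 38.8% and 26.9% of all genes. Limma on the gene means, which does not ask that guides of a gene move together, called 12 carriers depleted and 5 enriched between the lines, 25% and 10.4% against 22% and 12.6% of all genes. In parental cells it called 10 depleted and 11 enriched, 20.8% and 22.9% against 31.3% and 23.6% of all genes. In SETD2-mutant cells it called 19 depleted and 16 enriched, 39.6% and 33.3% against 38% and 23.8%. The differences between carriers and all genes in these shares were not tested.

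SLC25A1, the citrate carrier (chromosome 22, 19175581 to 19178736, RefSeq, GRCh38.p14), stood at a mean log2 CPM of 4.36 and 4.38 in library, 4.34 and 4.25 in parental and 5.79 and 5.86 in SETD2-mutant samples. The parental samples lay at or slightly below the library level, and both SETD2-mutant samples lay above all others. Against library its guides changed by −0.07 (SE 0.126, 4 of 10 down) in parental cells, which was not called by edgeR and RRA (adjusted p = 1). In SETD2-mutant cells they rose by 1.46 (SE 0.0850, 10 of 10 up, adjusted p = 9.64e-13 by edgeR and RRA), the smallest SE among the carriers in that comparison. Between the lines the rise was 1.53 (SE 0.139, adjusted p = 1.45e-20 by edgeR and RRA), a p that treats the 10 guides as independent.

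All 10 SLC25A1 guides rose in SETD2-mutant cells. In the library they ranged from 8.14 to 36.9 CPM, in parental cells from 8.36 to 32.2 CPM and in SETD2-mutant cells from 29.1 to 81.6 CPM. The guide that rose least went from 32.2 and 27.2 CPM in parental cells to 45.2 and 44.0 CPM in SETD2-mutant cells, a change of 0.58. The guide that rose most went from 14.0 and 10.5 CPM to 49.8 and 70.2 CPM, a change of 2.29, and this guide had fallen from 23.5 and 22.8 CPM in the library. All 10 guides were enriched on their own between the lines by edgeR. Against library in parental cells, 2 of the 10 guides were depleted and 1 was enriched, with changes from −0.92 to 0.43. Over 16 alternatives the rise between the lines ranged from 1.33 to 1.58, and it was called in all 15 that gave a test (highest adjusted p 5.36e-05). When the samples were scaled on 100 guides labelled dummyguide, the rise against library in SETD2-mutant cells was 0.54, with a shift of −0.92 for the median of all genes.

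The other 3 carriers of carboxylates and keto acids gave no call by edgeR and RRA. SLC25A10, the dicarboxylate carrier that exchanges malate or succinate for phosphate, had a mean log2 CPM of 3.52 and 3.48 in library, 3.13 and 3.07 in parental and 2.76 and 2.28 in SETD2-mutant samples. The values lay lower in each SETD2-mutant sample than in each parental sample, and the SETD2-mutant samples differed more from each other than the parental samples did. Its change between the lines was −0.52 (SE 0.215, 7 of 10 guides down, adjusted p = 0.728 by edgeR and RRA). Limma called SLC25A10 depleted between the lines and in SETD2-mutant cells against library. Against library in SETD2-mutant cells it stood at −0.91 (adjusted p = 0.219 by edgeR and RRA). There it was called depleted without SETD2-mutant replicate 1 (−1.24, adjusted p = 0.0211). SLC25A11, the oxoglutarate carrier of the malate-aspartate shuttle, stood at 0.35 between the lines over 9 guides and SLC25A21, the oxodicarboxylate carrier, at 0.17.

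The aspartate and glutamate carriers stayed close to 0. SLC25A12 and SLC25A13, the paired aspartate/glutamate exchangers that complete the malate-aspartate shuttle, stood at 0.16 and −0.01 between the lines. The glutamate carriers SLC25A22 and SLC25A18 stood at 0.06 and −0.06. Against library the 4 genes ranged from −0.16 to 0.33 in parental and from −0.10 to 0.31 in SETD2-mutant cells, with 0 of 4 called by edgeR and RRA in each comparison, 0 at an unadjusted RRA p below 0.05 and 0 with DESeq2. Limma called SLC25A13 enriched against library in both lines.

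Among carriers of other amino acids 0 of 5 were called by edgeR and RRA or with DESeq2 in each comparison. Before adjustment an RRA p below 0.05 was found for 1 of 5 depleted between the lines (7.53% of all genes), 1 enriched in parental cells (9.38%) and 2 enriched in SETD2-mutant cells (10.3%). Limma called 2 of 5 depleted between the lines (22% of all genes), 2 enriched in parental cells (23.6%), and in SETD2-mutant cells 2 enriched (23.8%) and 1 depleted (38%). The ornithine carriers SLC25A2 and SLC25A15 stood at 0.21 and 0.14 between the lines, SLC25A38, the glycine carrier needed for heme synthesis, at −0.03, and SLC25A44, a carrier of branched-chain amino acids, at −0.46. SLC25A29, a carrier of basic amino acids, stood at −0.36 (SE 0.514) between the lines while its median guide stood at 0.06. One of its guides went from 14.2 and 14.1 CPM in the library to 267 and 306 CPM in the parental samples and was at 9.30 and 10.4 CPM in the SETD2-mutant samples, a change of 4.34 in parental cells and of −4.86 between the lines. This guide was high in both parental samples alone, and the other 9 guides of SLC25A29 ranged from −0.23 to 1.10 in parental cells. For SLC25A29 as a gene, edgeR and RRA gave an adjusted p of 0.0676 for enrichment in parental cells and of 0.0669 for depletion between the lines.

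Carriers of ADP, ATP and phosphate held both carriers depleted between the lines. SLC25A3, the phosphate carrier (chromosome 12, 98593686 to 98606367), had a mean log2 CPM of 3.17 and 3.12 in library, 1.56 and 1.43 in parental and 0.16 and −0.03 in SETD2-mutant samples. The 3 groups did not overlap, with SETD2-mutant cells lowest. Its guides fell by 1.66 on the log2 scale in parental cells (SE 0.392, 9 of 10 down, adjusted p = 0.00453 by edgeR and RRA) and by 3.53 in SETD2-mutant cells (SE 1.21, 9 of 10 down, adjusted p = 0.00473 by edgeR and RRA). Between the lines the change was −1.86 (SE 0.952, adjusted p = 0.0140 by edgeR and RRA).

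The SLC25A3 guides disagreed among themselves between the lines, with 6 down and 4 up. One guide had 36 and 22 counts in the parental samples and 0 in both SETD2-mutant samples, which is at least 7.70-fold lower against a floor of 3 counts per library. Another fell from 3.77 and 3.46 CPM to 0.160 and 0.0296 CPM. At the other end a guide rose from 1.66 and 1.07 CPM in parental cells to 3.99 and 5.12 CPM, with 6.36 and 6.89 CPM in the library, so that it lay below library in both lines and furthest in parental cells. The median guide stood at −1.09, and with the guide at 0 counts set to its bound the mean was −1.38 (SE 0.710) between the lines and −3.04 (SE 0.923) in SETD2-mutant cells against library. The call between the lines was lost without SETD2-mutant replicate 2 (−1.87, adjusted p = 0.0698), without parental replicate 1 (−1.78, 0.0554), without parental replicate 2 (−1.92, 0.0791) and with DESeq2 for each guide (−1.80, 0.0552). Against library in parental cells it was lost without parental replicate 2 (−1.61, adjusted p = 0.0509), in RRA with the top 0.1 of ranks (0.205) and with dummyguide scaling (0.0868).

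SLC25A25, a carrier of ATP-Mg and phosphate that is regulated by calcium (chromosome 9, 128068232 to 128109245), had a mean log2 CPM of 3.01 in both library samples, 3.70 and 3.63 in parental and 2.83 and 2.81 in SETD2-mutant samples. The parental samples lay above library and the SETD2-mutant samples a little below it. All 10 guides were lower in SETD2-mutant than in parental cells, from −1.73 to −0.30, and the mean change was −0.84 (SE 0.126, adjusted p = 0.0102 by edgeR and RRA). Against library it stood at 0.67 in parental cells (SE 0.238, adjusted p = 0.141 by edgeR and RRA) with 9 of 10 guides up, 6 of them enriched on their own. In SETD2-mutant cells it stood at −0.18 (SE 0.333, adjusted p = 1 by edgeR and RRA). Limma called SLC25A25 enriched in parental cells and depleted in SETD2-mutant cells, both against library. The most abundant parental guide went from 14.8 and 14.2 CPM in library to 47.4 and 43.5 CPM in parental and 24.2 and 25.4 CPM in SETD2-mutant samples. The call between the lines was lost without SETD2-mutant replicate 2 (−0.85, adjusted p = 0.0933), without parental replicate 2 (−0.87, 0.0700) and in RRA with the top 0.1 of ranks (0.0530).

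The paralogues of these carriers were not called by edgeR and RRA. Limma called SLC25A6 and SLC25A41 enriched and SLC25A23 depleted between the lines, and SLC25A4, SLC25A5 and SLC25A23 enriched against library in both lines. Against library in SETD2-mutant cells alone, limma also called SLC25A6 and SLC25A41 enriched and SLC25A31 depleted. The ADP/ATP carriers SLC25A4, SLC25A5, SLC25A6 and SLC25A31 stood at −0.14, 0.10, 0.32 and −0.18 between the lines, and at 0.39, 0.19, 0.14 and −0.01 in parental cells against library. SLC25A5 against library in SETD2-mutant cells (0.29, adjusted p = 0.0834 by edgeR and RRA) was called enriched without parental replicate 1, without parental replicate 2 and when only those 2 groups were fitted. The other ATP-Mg carriers SLC25A23, SLC25A24 and SLC25A41 stood at −0.17, 0.16 and 0.24 between the lines. These genes have close relatives in sequence, and whether a guide also cuts a relative was not tested, since guide sequences were not used here.

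The pyrimidine nucleotide carriers SLC25A33 and SLC25A36 both had higher mean levels in parental cells than in library, with SLC25A36 called. SLC25A36 (chromosome 3, 140941836 to 140980995) had a mean log2 CPM of 3.15 and 3.12 in library, 3.82 and 3.83 in parental and 3.68 and 3.43 in SETD2-mutant samples. Both lines lay above library, and the parental samples lay above the SETD2-mutant samples. In parental cells it was enriched by 0.71 (SE 0.269, adjusted p = 0.00516 by edgeR and RRA) with 9 of 10 guides up and, guide by guide, 8 enriched and 1 depleted by edgeR. In SETD2-mutant cells it stood at 0.44 (adjusted p = 0.467), and the difference between the lines was −0.27 (SE 0.179, adjusted p = 1 by edgeR and RRA). The parental call was lost in RRA with the top 0.1 of ranks (adjusted p = 0.335). With dummyguide scaling the change was −0.07, where the median of all genes shifted by −0.78. SLC25A36 was still called enriched there (adjusted p = 0.00444 by edgeR and RRA), since RRA ranks guides against all other guides. SLC25A33 stood at 0.60 in parental cells (8 of 10 guides up, adjusted p = 0.150), 0.09 in SETD2-mutant cells and −0.51 between the lines (SE 0.159, adjusted p = 0.427 by edgeR and RRA). Limma called both carriers enriched in parental cells and depleted between the lines, and SLC25A36 also enriched in SETD2-mutant cells.

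Carriers of cofactors and vitamins had a negative change in parental cells for 8 of 8 members, where 30 of 48 carriers and 3660 of 7090 genes did. The 8 changes ranged from −2.58 to −0.09, with a median of −0.47 against −0.01 for all genes. By edgeR and RRA 2 of them were depleted, against 9.9% of all genes. SLC25A26 (chromosome 3, 66133610 to 66378927), which imports S-adenosylmethionine for methylation in the matrix, had a mean log2 CPM of 3.36 in both library samples, 0.64 and 1.14 in parental and 0.71 and 0.19 in SETD2-mutant samples. The lines overlapped and lay far below library. It fell by 2.58 on the log2 scale in parental cells (SE 0.719, 9 of 10 guides down, adjusted p = 0.00183) and by 3.48 in SETD2-mutant cells (SE 1.19, 9 of 10 down, adjusted p = 0.0123), both by edgeR and RRA. One guide ran against the others, from 15.1 and 16.0 CPM in library to 37.6 and 39.5 CPM in parental and 42.6 and 37.97 CPM in SETD2-mutant samples. Between the lines SLC25A26 stood at −0.90 (SE 0.628, adjusted p = 1 by edgeR and RRA) with its median guide at −0.01 and 5 guides on each side of 0. One guide had 253 and 211 counts in library, 1 and 2 in parental and 0 in both SETD2-mutant samples, at least 60.3-fold below library against a floor of 3 counts per library. With this guide at its bound the change in SETD2-mutant cells was −2.99 (SE 0.934), and over the other 9 guides the difference between the lines was −0.59. With dummyguide scaling both calls were lost (adjusted p of 0.0554 in parental cells, 0.151 in mutant cells), although the changes there were −3.35 and −4.36.

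SLC25A51, the carrier that brings NAD into mitochondria (chromosome 9, 37877575 to 37904127), had a mean log2 CPM of 2.94 and 2.93 in library, 1.54 and 1.65 in parental and 1.74 and 1.85 in SETD2-mutant samples. Both lines lay below library, with SETD2-mutant samples a little above parental ones. It fell by 1.34 on the log2 scale in parental cells (SE 0.194, 7 of 7 guides down, adjusted p = 0.00630 by edgeR and RRA). In SETD2-mutant cells it stood at −1.13 (SE 0.160, 7 of 7 down, adjusted p = 0.316 by edgeR and RRA), and it was called there by limma and without SETD2-mutant replicate 2 (−1.21, adjusted p = 0.00489). The difference between the lines was 0.22 (SE 0.131, adjusted p = 1 by edgeR and RRA). The parental call was lost in RRA with the top 0.1 of ranks (adjusted p = 1) and with dummyguide scaling (0.0610). Its near-identical relative SLC25A52, with 10 guides, stood at −0.49 in parental (SE 0.302, 6 of 10 down) and −0.59 in SETD2-mutant cells, with no call by edgeR and RRA in either line and a depletion call by limma in both. Whether guides to one of this pair also cut the other was not tested, so the values of both are uncertain.

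SLC25A32, the carrier of folate and of FAD (chromosome 8), had a mean log2 CPM of 2.90 and 2.89 in library, 2.32 and 2.21 in parental and 2.95 and 3.04 in SETD2-mutant samples. The parental samples lay below all others, and the SETD2-mutant samples lay just above library. All 10 guides were below library in parental cells, from −1.04 to −0.05. Their mean was −0.62 (SE 0.0896, adjusted p = 0.578 by edgeR and RRA), a fall that limma called. All 10 were higher in SETD2-mutant than in parental cells, from 0.11 to 1.42, with a mean of 0.74 (SE 0.126, adjusted p = 0.202 by edgeR and RRA). That difference was called enriched by limma (adjusted p = 0.000589), with dummyguide scaling (0.0202), without SETD2-mutant replicate 2 (0.67, 0.0221) and without parental replicate 1 (0.81, 0.0386). SLC25A16, the peroxisomal SLC25A17 and SLC25A42, which carries coenzyme A, stood at 0.09, −0.20 and −0.05 between the lines.

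The remaining 16 carriers held 0 calls by edgeR and RRA and 0 with DESeq2. By edgeR and RRA 1.28% of all genes were depleted and 1.03% enriched between the lines. Against library the shares were 9.9% and 1.11% in parental and 9.04% and 1.11% in SETD2-mutant cells. DESeq2 called 84 and 77 of all 7090 genes between the lines, 703 and 74 in parental and 643 and 76 in SETD2-mutant cells. Before adjustment an RRA p below 0.05 was found for SLC25A20 between the lines, SLC25A34, SLC25A47 and SLC25A53 in parental and the latter pair in SETD2-mutant cells, the last 3 for enrichment. Over all genes 7.53% passed for depletion between the lines, and 9.38% and 10.3% for enrichment in parental and SETD2-mutant cells. SLC25A20, which carries acylcarnitines for fatty acid oxidation, had a mean log2 CPM of 3.09 in both library samples, 3.0 and 2.95 in parental and 2.29 and 2.32 in SETD2-mutant samples, and the SETD2-mutant samples lay below all others. Its change between the lines was −0.67 (SE 0.301, 8 of 10 guides down, adjusted p = 0.247 by edgeR and RRA), and it was called without parental replicate 2 (−0.68, adjusted p = 0.0312) and by limma. SLC25A46, an outer membrane member tied to mitochondrial dynamics, had a mean log2 CPM of 3.32 and 3.38 in library, 2.68 and 2.87 in parental and 2.33 and 2.19 in SETD2-mutant samples. Its level was lower in parental than in library samples and lower again in SETD2-mutant samples, with a change between the lines of −0.52 (SE 0.238, adjusted p = 0.731 by edgeR and RRA). Limma called SLC25A46 depleted in each comparison. One SLC25A46 guide went from 14.8 and 13.9 CPM in library to 0.791 and 2.69 CPM in parental and 0.798 and 0.118 CPM in SETD2-mutant samples, while the median guide changed by −0.22 in parental cells. The iron carriers SLC25A28 and SLC25A37 stood at −0.59 and 0.24 in parental cells, opposite sides of library, and at −0.21 and 0.07 between the lines. The glutathione carriers SLC25A39 and SLC25A40 stood at −0.18 and −0.12 between the lines, and the uncoupling-protein-like SLC25A14, SLC25A27 and SLC25A30 at −0.12, 0.04 and −0.36. The 8 less well assigned members ranged from −0.52 to 0.19 between the lines. Among these 16 carriers limma called SLC25A20, SLC25A45 and SLC25A46 depleted between the lines (22% of all genes). In parental cells it called SLC25A28, SLC25A45 and SLC25A46 depleted (31.3%) and SLC25A34 and SLC25A53 enriched (23.6%). In SETD2-mutant cells SLC25A14, SLC25A20, SLC25A28, SLC25A30, SLC25A39, SLC25A40, SLC25A45 and SLC25A46 were depleted by limma (38%). SLC25A34, SLC25A35, SLC25A37, SLC25A43 and SLC25A53 were enriched there (23.8%).

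Enzymes that handle the metabolites of these carriers were counted beside them. In the list of 12 genes for citrate and its cytosolic use, 2 were depleted between the lines by edgeR and RRA, where 1.28% of all genes were, and 0 enriched, where 1.03% were. At an unadjusted RRA p below 0.05 the counts were 2 depleted and 1 enriched, by limma 4 and 2 and with DESeq2 2 and 0. Over all genes the shares were 7.53% and 6.84% before adjustment and 22% and 12.6% by limma. DESeq2 called 84 and 77 of all 7090 genes. The median of the list was −0.11 against −0.04 for all genes. Among the depleted genes was the fatty acid desaturase SCD at −1.54 (SE 0.366, 10 of 10 guides down, adjusted p = 0.0128 by edgeR and RRA). Citrate synthase CS stood at 0.59 (adjusted p = 0.133 by edgeR and RRA), with 10 of 10 guides up. ACLY, the enzyme that splits exported citrate into acetyl-CoA, fell by 1.88 on the log2 scale in parental cells and stood at −2.02 in SETD2-mutant cells (adjusted p = 2.49e-07 and 2.33e-06 by edgeR and RRA) and stood at −0.14 between the lines. ACACA and FASN, which turn acetyl-CoA into fatty acids, were likewise depleted in both lines, with −1.33 and −0.93 in parental cells. SLC25A1 itself was not called in parental cells.

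Of 5 measured enzymes of the malate-aspartate and glycerol phosphate shuttles, 2 were enriched between the lines and 0 depleted by edgeR and RRA, with a median of −0.01. Over all genes 1.03% were enriched and 1.28% depleted. Before adjustment and by limma 2 were enriched and 1 depleted, and with DESeq2 2 and 0. Over all genes the shares were 6.84% and 7.53% before adjustment and 12.6% and 22% by limma. DESeq2 called 77 and 84 of all 7090 genes. MDH2, the mitochondrial malate dehydrogenase, rose by 0.78 (SE 0.137, 10 of 10 guides up, adjusted p = 0.000666) and GOT1, the cytosolic aspartate aminotransferase, by 0.57 (SE 0.0889, 10 of 10 up, adjusted p = 0.0180), both by edgeR and RRA. The carriers of the same shuttle, SLC25A11, SLC25A12 and SLC25A13, were not called by edgeR and RRA, and limma called SLC25A11 enriched between the lines. Among 22 other mitochondrial transport proteins 2 were depleted between the lines and 0 enriched by edgeR and RRA, with a median of −0.07. Before adjustment 6 were depleted and 4 enriched, where 7.53% and 6.84% of all genes passed. By limma the counts were 7 and 5, where 22% and 12.6% of all genes were called, and with DESeq2 1 and 0. Both genes called by edgeR are porins of the outer membrane, VDAC1 at −1.16 (adjusted p = 0.000125) and VDAC2 at −1.46 (adjusted p = 0.0114) by edgeR and RRA. The pyruvate carrier subunits MPC1 and MPC2 stood at 0.62 (adjusted p = 0.278) and 0.22. Of 7 ATP synthase genes, 0 were called between the lines by edgeR and RRA and 0 with DESeq2. Before adjustment 1 was depleted there (7.53% of all genes), and by limma 3 were (22% of all genes). Against library 4 were depleted in parental cells and 3 in the mutant line by edgeR and RRA, against 9.9% and 9.04% of all genes. Their differences ranged from −0.54 to 0.07 between the lines with a median of −0.12. Of the 7 genes 6 lay below 0, as did 3996 of all 7090 genes.

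Genes needed by nearly all cells give a yardstick for how far guides fell in each line. The 53 ribosomal protein genes had a median change of −3.53 in the parental line and of −4.08 in the mutant line. With the SETD2-mutant changes scaled by 0.865 so that these medians were equal, the difference between the lines was −1.39 for SLC25A3, −0.82 for SLC25A25, 1.33 for SLC25A1 and −0.43 for SLC25A26, values that carry no test. The part of this difference in the calls between the lines was not tested further.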

How the data were processed

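The authors deposited raw counts per guide for 6 samples, whole numbers without scaling. The tool MAGeCK and the build hg38 are named, per the submitters' processing notes, with their roles and the MAGeCK version not given in the sources used here. A mean of at least 30 counts in the library samples kept 71470 guides. The 56 guides below it and the 100 dummyguide guides were left out of the fit. Counts were scaled with TMM and fitted with edgeR 4.0.16 (glmQLFit, robust, R 4.3.3) on all 6 samples by group. Guides were ranked by one-sided p and combined by RRA (rank share limit 0.25, at least 3 guides), with p from the exact distribution of uniform order statistics. MAGeCK itself was not run. Scripts were tested on simulated data. Alternatives used DESeq2 1.42.0, limma 3.58.1 (prior count 2), other scalings, no filter, a rank share limit of 0.1, fewer groups, a replicate block and each sample left out. P-values for single guides and from limma measure the spread between samples of 1 transduction. Gene p-values from RRA measure how far the guides of a gene rank together, with guides treated as independent. They do not measure the spread between replicates of a gene. Coordinates come from RefSeq (GRCh38.p14), in which all 48 symbols matched. Values were given for SLC25A1, for carriers called in any comparison and for the 4 others with the largest difference between the lines, and single guides or genes beyond this rule (SLC25A29, SLC25A33, ACLY, FASN, MPC2) were chosen after their values were seen. Of the pathway lists, genes called between the lines and others with large changes were named. Values of 2 genes are not reported here. Members and lists were chosen with earlier results of these data known.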

Additional observations from a re-analysis of the deposited data

Results flagged for a closer look

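The change from library differed between SETD2-mutant and parental cells for 3 carriers, by the test of the difference itself (edgeR and RRA). SLC25A1 was higher in SETD2-mutant cells by 1.53, with 10 of 10 guides up. SLC25A3 was lower by −1.86, with 6 of 10 guides down, and SLC25A25 was lower by −0.84, with 10 of 10 guides down.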

How the results depend on the processing

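The direction held for all 10 named carriers in all comparisons, except with dummyguide scaling, which shifted the median of all genes by −0.15 between the lines, −0.78 in parental and −0.92 in SETD2-mutant cells. There SLC25A25 (−0.11) and SLC25A36 (−0.068) turned below 0 in parental cells, as did SLC25A36 (−0.49) and SLC25A32 (−0.81) in SETD2-mutant cells. In parental cells SLC25A25 and SLC25A36 were called enriched with this scaling (adjusted p = 0.0127 and 0.00444 by edgeR and RRA), although their means were below 0. RRA ranks guides against all other guides. Main counts were 2 depleted and 1 enriched carriers between the lines, 3 and 1 in parental and 2 and 1 in SETD2-mutant cells. Limma gave 12 and 5, 10 and 11, and 19 and 16, with 1561 and 895 of all genes between the lines in place of 91 and 73, 2217 and 1674 in parental in place of 702 and 79, and 2693 and 1687 in SETD2-mutant cells in place of 641 and 79. Dummyguide scaling gave 2 enriched between the lines, with 80 of all genes in place of 73. For parental cells it gave 0 depleted and 3 enriched, with 633 and 54 of all genes in place of 702 and 79. For SETD2-mutant cells it gave 1 depleted, with 550 of all genes depleted in place of 641 and 35 enriched in place of 79. An RRA rank share limit of 0.1 gave 1 depleted between the lines, with 69 of all genes in place of 91. In parental cells it gave 1 depleted and 0 enriched, with 526 and 55 of all genes in place of 702 and 79. DESeq2 gave 1 depleted between the lines, with 84 of all genes in place of 91. Fitting only the compared groups gave 2 enriched in SETD2-mutant cells, with 76 of all genes in place of 79. Leaving out 1 sample gave 0 to 2 depleted and 1 to 2 enriched between the lines, 2 to 3 and 1 in parental, and 2 to 3 and 1 to 2 in SETD2-mutant cells, with 50 of all genes enriched in SETD2-mutant cells without SETD2-mutant replicate 1. The cause of these changes was not tested. The replicate block gave 1.53 for SLC25A1 between the lines and left all 6 counts as they were, and same-numbered samples did not deviate together (correlations −0.005, −0.0025 and −0.00505). An exact permutation test over 2 against 2 samples was not run. Guides at 0 counts give only a bound.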
